A study of Mus musculus and Homo sapiens with 20 samples.

Results

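The regions described here are the 500 clusters of distal accessible chromatin with the highest summed tags in cultured mouse hepatocytes, out of 31402 such clusters. They were proposed as dense clusters but were ranked by summed tags, not by tags per length. Their median was 10.5 tags per kb, against 8.78 over the other clusters with more than 1 region. Over all 30902 other clusters it was 32.4, and 15474 of the 31402 clusters were a single region. They were chosen in the 3 libraries named Cont_Ad_Cont. Peaks of these libraries that overlapped by at least 1 bp were merged into 371459 regions, of which 125731 were found in all 3 libraries. Regions within 2 kb of an end of a protein-coding gene were dropped, which left 91462. Regions separated by gaps of up to 12500 bp were then stitched into clusters, and the clusters were chosen by their rank in the sum of the mean tag counts of their regions. The 500 members made up 1.59% of the clusters, held 12684 of the 91462 regions (13.9%) and carried 16.4% of the distal tags. Because the Cont_Ad_Cont libraries chose the members, their own values are given as a description and enter no test.

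Large clusters of closely spaced regulatory elements tend to lie over genes that define a cell type, and in hepatocytes these include the genes of the liver transcription factors and of secreted plasma proteins. An enhancer is a stretch of DNA outside the promoter that binds transcription factors and raises transcription from a distance, and its DNA is usually free enough of nucleosomes to be cut by a transposase. ATAC-seq inserts sequencing adapters into such open DNA, so the number of sequenced fragment ends, called tags, measures accessibility. No histone mark, transcription factor or enhancer activity was measured here, and the clusters are therefore called clusters with high tag sums rather than super-enhancers.

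The study compared hepatocytes carrying a floxed allele of Ahr, the gene of the aryl hydrocarbon receptor, a ligand-activated transcription factor known for inducing enzymes of xenobiotic metabolism. The 4 groups were B2_minus_Ad_Cre (vitamin B2 deficiency with the treatment named Ad_Cre), Cont_Ad_Cre (control with Ad_Cre), B2_minus_Ad_Cont (deficiency with Ad_Cont) and Cont_Ad_Cont (control with Ad_Cont), each with 3 libraries and each labelled 4 weeks. The floxed allele was shared by all 4 groups, and the labels do not state if a group's libraries are separate cultures or animals, and p-values below are therefore about the spread among the libraries alone, which may be technical. Vitamin B2 is the precursor of the flavin cofactors of many oxidoreductases.

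The libraries listed 200698 to 281141 peaks with 3897632 to 5557678 tags in all, and peaks with fewer than 6 to 8 tags were not listed. The 3 Cont_Ad_Cre libraries listed 254160 to 281141 peaks, against 207948 to 235220 in B2_minus_Ad_Cre. Values below are tags scaled to a common library size over the regions listed in all 12 libraries, and the value of a cluster is the sum over its regions listed in all 12. All 500 clusters had such regions, 9393 of 12684 in all. Open chromatin at the Ahr gene cannot show whether the allele was deleted. The distal cluster over Ahr, ranked 6435 and so outside the 500, had 74.1, 82.4 and 76.2 scaled tags in B2_minus_Ad_Cre, against 75.3, 76.8 and 72.6 in B2_minus_Ad_Cont (log2 fold change 0.05, edgeR adjusted p = 0.951).

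Of the mature microRNAs in the RefSeq sequence table used here, 64 from 40 microRNA genes were found in 31 of the 500 clusters. The search left out the chromosome of the cluster ranked 255, so these are minimum counts. A few of the clusters with the highest sums lie over microRNA genes, and some of the microRNAs found are shown. They were not chosen by rank. Those of miR-3075 (rank 4), miR-7687 (rank 7) and miR-1905 (rank 22) are left out, while miR-22 (rank 478) is shown. The sequences come from RefSeq (GRCm38.p6, the same assembly as mm10), written 5′ to 3′ with the seed, bases 2 to 8, in capitals. MicroRNA levels were not measured.
mmu-miR-29a-3p: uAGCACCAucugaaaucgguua
mmu-miR-29b-3p: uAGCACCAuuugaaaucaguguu
mmu-miR-34a-5p: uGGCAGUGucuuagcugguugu
mmu-miR-21a-5p: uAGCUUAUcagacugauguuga
mmu-miR-27b-3p: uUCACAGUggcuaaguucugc
mmu-miR-24-3p: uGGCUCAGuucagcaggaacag
mmu-miR-193a-3p: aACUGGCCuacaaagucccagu
mmu-miR-365-3p: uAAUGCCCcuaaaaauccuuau
mmu-miR-22-3p: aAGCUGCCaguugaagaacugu
The miR-29a and miR-29b genes share a seed and lie in the same cluster, ranked 3, at chr6:31048863-31222321. The other genes lie in the clusters over H6pd (miR-34a, rank 19), Vmp1 (miR-21a, rank 27) and Aopep (miR-27b and miR-24, rank 32), and in those 5031 bp from Rab11fip4 (miR-193a and miR-365, rank 37) and 2085 bp from Tlcd2 (miR-22, rank 478). None of these 6 clusters passed the test of either comparison below. Mir122, the gene of the most abundant hepatocyte microRNA, is placed by the RefSeq gene table in the cluster ranked 255, next to Nedd4l. It lies on the chromosome left out of the search and is not among the 40 genes counted above.

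Some regions of the clusters overlapped a transcription start that RefSeq places inside a gene body or at a noncoding gene. Of the windows around these starts, 8 were overlapped, by at least 100 bp, by 5 regions that passed the test of the vitamin B2 comparison. Of the 8, 4 are shown, each from a different region, and their choice followed no rule set beforehand. Clusters on the chromosome of the cluster next to Nedd4l were left out of this search too. Each window runs from 250 bases before to 50 bases after the start, in the direction of the gene, on GRCm38.p6. Capitals mark matches, on either strand, to GCGTG (the core of the site bound by AhR with its partner ARNT), TGTTTAC (a site of the FOXA factors) and TTGCNNAA (a site of the C/EBP factors). TGANTCA (a site of AP-1) and CAAAGTNCA (a site of HNF4) were also searched and had no match in these 4 windows, and no matches overlapped.
Gpam start window, chr19:55099428-55099727, minus strand: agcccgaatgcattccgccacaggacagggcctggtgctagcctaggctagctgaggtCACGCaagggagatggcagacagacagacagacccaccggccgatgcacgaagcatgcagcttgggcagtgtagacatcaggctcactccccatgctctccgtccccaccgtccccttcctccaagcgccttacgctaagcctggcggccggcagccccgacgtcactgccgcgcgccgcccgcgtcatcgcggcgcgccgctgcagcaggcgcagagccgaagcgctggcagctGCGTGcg
Septin9 start window, chr11:117265996-117266295, plus strand: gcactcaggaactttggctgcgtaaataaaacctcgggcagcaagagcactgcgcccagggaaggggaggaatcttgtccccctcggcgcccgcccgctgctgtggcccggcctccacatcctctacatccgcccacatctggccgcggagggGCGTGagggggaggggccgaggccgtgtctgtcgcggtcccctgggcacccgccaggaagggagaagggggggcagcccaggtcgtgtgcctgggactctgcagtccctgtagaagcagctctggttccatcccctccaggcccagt
Gm40264 start window, chr5:9034496-9034795, plus strand: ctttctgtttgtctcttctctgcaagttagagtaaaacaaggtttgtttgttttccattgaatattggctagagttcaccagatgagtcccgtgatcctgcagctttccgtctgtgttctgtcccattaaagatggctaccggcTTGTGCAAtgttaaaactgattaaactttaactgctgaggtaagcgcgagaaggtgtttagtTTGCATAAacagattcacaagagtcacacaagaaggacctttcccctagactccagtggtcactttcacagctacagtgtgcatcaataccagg
Gm30842 start window, chr6:121137237-121137536, plus strand: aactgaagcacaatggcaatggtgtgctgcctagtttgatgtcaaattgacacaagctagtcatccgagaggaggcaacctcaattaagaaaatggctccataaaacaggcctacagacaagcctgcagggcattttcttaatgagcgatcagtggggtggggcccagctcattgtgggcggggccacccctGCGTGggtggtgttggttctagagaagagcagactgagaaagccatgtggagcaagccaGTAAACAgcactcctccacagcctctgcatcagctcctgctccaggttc
The Gpam window had 2 matches to GCGTG and the Septin9 and Gm30842 windows 1 each. The Gm30842 window also matched TGTTTAC, and the Gm40264 window had 2 matches to TTGCNNAA. Of the windows not shown, that of 4833411C07Rik had 1 match each to TGTTTAC and TTGCNNAA. The Gm39478 window had 1 match to GCGTG, and the 2 windows of Gm31356 had 2 each. Of all 32851 start windows of RefSeq, 32.4% held GCGTG, 3.65% TGTTTAC, 10.8% TTGCNNAA, 7.81% TGANTCA and 1.41% CAAAGTNCA. A match is a string of letters and does not show binding.

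The clusters were long and crowded. They spanned 3.73 to 173 kb with a median of 61.2 kb, and held 6 to 98 regions with a median of 22. The 15428 other clusters of more than 1 region had a median of 8.42 kb and 3 regions. Summed tags ran from 434 to 2552 in the 500 clusters, with a median of 584, against a median of 66.3 in those others. Their regions were also stronger one by one, with a median over clusters of 27.0 tags per region, against 20.7. These sizes follow from the ranking and are given without a test.

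**Figure D1:**
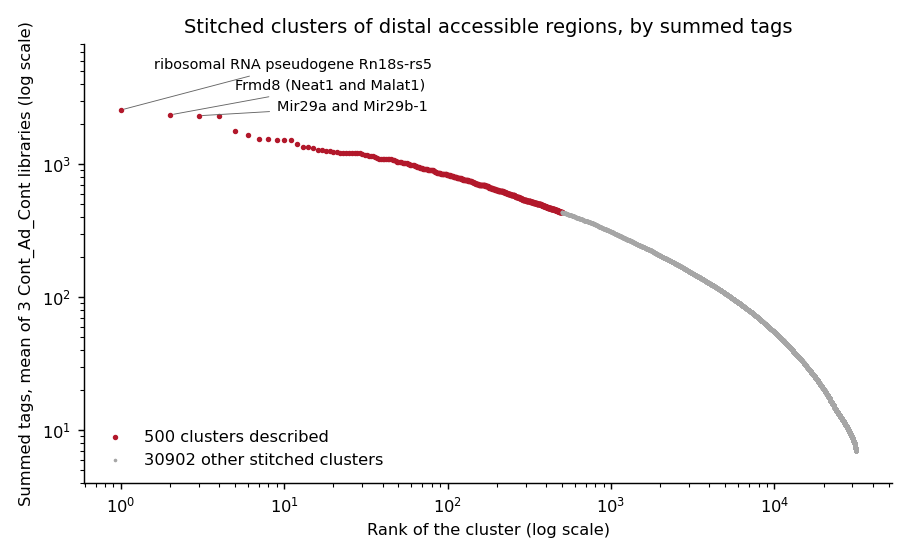
Summed tags of each stitched cluster (mean of the 3 Cont_Ad_Cont libraries, log scale) against its rank (log scale), with the 500 clusters described in red and the other 30902 in grey. The curve runs on without a break at rank 500, where the sum was 434 tags.

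The cut at rank 500 fell in a continuous range. The last clusters inside were those of Ccdc85c (434.3 tags), Cyb5r3 (434 tags) and Ssbp3 (434 tags). The first ones outside were a cluster with no gene nearby at chromosome 9 (433.7 tags) and those of Dnmt3a (433.7 tags) and Nsmce2 (433.7 tags).

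The highest tag sum, 2552, belonged to a cluster of 9 regions in only 5181 bp at chr17:39843284-39848464, over the ribosomal RNA pseudogene Rn18s-rs5. The cluster ranked 2, with 73 regions and 2344 tags at chr19:5786450-5848755, covers Neat1 and Malat1, abundant nuclear noncoding RNAs, and lies 2219 bp from Frmd8. The cluster of the miR-29 genes was the longest (173459 bp) and had the most regions (98), with 2311 tags. Zmiz1, a coactivator of transcription factors, followed with 75 regions and 2304 tags. Ranks 5 to 9 went to a cluster 35421 bp from Ptpn1 (1765 tags) and to clusters over Shb (1654 tags), Gse1 (1544 tags), Myh9 (1534 tags) and Tns1 (1527 tags), where Ptpn1 encodes a phosphatase that acts on the insulin receptor and Myh9 a nonmuscle myosin. The cluster over Sfi1, which encodes a centrosomal protein, ranked 10 with 1521 tags. Egfr, the epidermal growth factor receptor, carried 84 regions at rank 16, and Dusp16 and Slc22a23 carried the next longest clusters, with 162177 bp and 161214 bp.

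Of the 500 clusters, 434 overlapped a protein-coding gene, 323 of them a single gene and 111 at least 2. The nearest gene was within 50 kb for another 50, and 16 had none within 50 kb. In all, 631 of 21627 protein-coding genes (2.92%) were assigned to a cluster. Inside gene bodies lay 70.7% of their regions, against 56.1% of the regions of other clusters. Chromosome X, with 752 stitched clusters, had 1 of the 500, while chromosome 4, with 1926, had 44.

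The genes of the clusters were set against lists of genes, beside the 2.92% of all protein-coding genes and with no test. Of 23 hepatocyte transcription factor genes, 7 (30.4%) had a cluster, namely Cebpa, Foxa2, Hnf4a, Nr5a2, Onecut2, Prox1 and Rxra. Of 40 plasma protein genes, 6 (15%) had one: the 3 fibrinogen genes Fga, Fgb and Fgg, and Cp, Gc and Trf, the genes of ceruloplasmin, vitamin D-binding protein and transferrin. Fatty acid and triglyceride synthesis had clusters at 6 of 20 genes, the circadian clock at 5 of 17, and cholesterol synthesis and uptake at 4 of 17. Genes of the cytoskeleton and YAP program, which rise when hepatocytes dedifferentiate, had clusters at 7 of 23 (30.4%), the same share as the hepatocyte factors. NRF2 targets had clusters at 4 of 16, inflammation and acute phase genes at 4 of 25, AP-1 and immediate early genes at 3 of 15, and xenobiotic and bile acid genes at 3 of 29. Neither the 21 genes of the urea cycle and amino acid metabolism nor the 14 of the integrated stress response had any. AhR and its targets had 1 of 10, Ugt1a6a, whose cluster overlapped Mroh2a, Hjurp and Trpm8 over longer stretches.

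Markers of other liver cells were counted in the same way. None of 15 stellate cell, 15 Kupffer cell or 12 cholangiocyte genes had one. The bodies of 13 of the 15 Kupffer genes, Adgre1, Clec4f and Ptprc among them, were overlapped by no stitched cluster of any rank. The same held for 11 of 40 plasma protein genes, 3 of 23 hepatocyte transcription factor genes, 14 of 25 inflammation genes and 11 of 14 integrated stress response genes. The share over all genes was not counted, and regions within 2 kb of gene ends had been dropped. Among the 500 clusters, endothelial markers had one at 2 of 16 genes, Eng and Egfl7, beside 2.92% of all protein-coding genes. Summed over all clusters overlapping the 16 endothelial genes, of which 2 had none, B2_minus_Ad_Cre had 2153 to 2201 scaled tags and Cont_Ad_Cre 2124 to 2195. For the stellate genes the sums were 672 to 752 and 719 to 810 scaled tags, in the same order of groups. Kupffer genes gave 145 to 148 and 143 to 172, and cholangiocyte genes 1034 to 1124 and 1024 to 1049. Single clusters at these genes were called in this comparison (edgeR adjusted p under 0.05). Of 22 tested at endothelial genes, 1 was higher and 2 lower, and of 15 at cholangiocyte genes, 2 were higher and 1 lower. Of 11 at stellate genes, 1 was lower, and of 2 at Kupffer genes, 0 were called. Over all clusters tested, 1.69% were higher and 2.77% lower. In bulk libraries, fewer cells of a type and less accessibility per cell cannot be told apart, and what part other cells had in the results below was not tested.

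A few clusters stood apart by their position or density. Those ranked 1, 341 and 288 had 493, 137 and 120 tags per kb, against a median of 10.5 over the 500, and the cluster ranked 341 measured 3728 bp. The cluster ranked 147, with no gene within 50 kb, began at the first listed base of chromosome 9 (0.001 kb away), and the one over Sfi1 began 22.84 kb from that of chromosome 11 and covers the pseudogenes Pisd-ps1 and Fau-ps2. No repeat annotation was used, and whether reads at these 5 clusters map to a single place was not tested. Counts below are given with and without them.

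Vitamin B2 deficiency was tested in the Ad_Cre arm, whose libraries did not choose the members. Accessibility in the clusters differed by small amounts, with gains near Rbpms and at Fto, Gata4 and Cyb5a. Losses were at Sfi1, near Itga3, at Clu and in a cluster over Mroh2a, Hjurp, Trpm8 and part of the Ugt1a locus. In B2_minus_Ad_Cre against Cont_Ad_Cre, 63 of the 500 clusters (12.6%) passed an adjusted p of 0.05 in edgeR's quasi-likelihood test, 42 of them higher and 21 lower. Over all 27330 clusters tested the share was 4.46%, with 1.69% higher and 2.77% lower. The median log2 fold change was 0.14 for the 42 gains, which ranged from 0.09 to 0.23, and -0.17 for the 21 losses, which ranged from -0.34 to -0.10. The median over all 500 clusters was 0.02 and over all clusters tested -0.00128. The groups did not overlap in 167 of the 500 (33.4%), against 21% of all clusters, and in 60 of the 63 that passed. Without the 5 clusters named above, 58 of 495 passed (11.7%), 42 higher and 16 lower. Leaving out B2_minus_Ad_Cre replicate 1, 2 or 3 left 37, 45 or 33 calls, and leaving out Cont_Ad_Cre replicate 1, 2 or 3 left 39, 40 or 35. DESeq2, which does not allow a spread below that of counting, called 2 of the 500, Sfi1 (adjusted p = 5.9e-09) and Itga3 (adjusted p = 0.0166), and library sizes taken from all listed tags turned the split from 66.7% higher to 99.4% higher, with a shift of 0.13 in the median log2 fold change of all clusters.

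**Figure D2:**
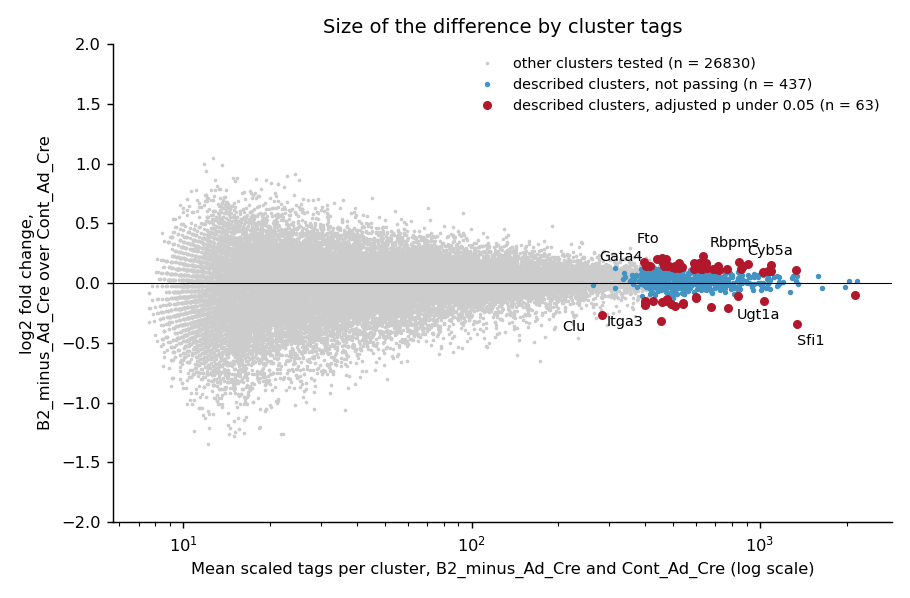
The log2 fold change of B2_minus_Ad_Cre over Cont_Ad_Cre for each cluster tested, against its mean scaled tags in the 6 libraries (log scale); grey points are other clusters, blue and red points the clusters described, red where adjusted p is under 0.05. Called clusters lie between -0.34 (Sfi1) and 0.23 (Rbpms), while low clusters spread much more widely.

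The largest gain was in a cluster of 16 regions in 26623 bp at chr8:33966572-33993194, which lies 36650 bp from Rbpms, the gene of an RNA-binding protein. It had 685, 661 and 701 scaled tags in B2_minus_Ad_Cre, against 586, 588 and 577 in Cont_Ad_Cre (log2 fold change 0.23 ± 0.04 SE, edgeR adjusted p = 5.95e-06). The 10 largest gains and the 10 largest losses were named among calls whose groups do not overlap, so their separation follows from the choice. The other cluster assigned to Rbpms, ranked 148 and over the gene, did not pass (-0.04, adjusted p = 0.676), although 1 of its 28 regions did (0.70, adjusted p = 0.0425). In the cluster within Fto, which encodes an RNA demethylase, the values were 490, 501 and 476 in B2_minus_Ad_Cre and 442, 416 and 413 in Cont_Ad_Cre (0.21, adjusted p = 4.83e-04). Gata4, the gene of a zinc-finger transcription factor of the endoderm, had 475, 471 and 467 in B2_minus_Ad_Cre, against 415, 421 and 396 in Cont_Ad_Cre (0.20, adjusted p = 0.0011).

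The cluster that holds Mir122 also gained. It had 496, 520 and 502 scaled tags in B2_minus_Ad_Cre, against 420, 464 and 438 in Cont_Ad_Cre (log2 fold change 0.20, edgeR adjusted p = 9.22e-04). Cyb5a encodes cytochrome b5, an electron carrier of the endoplasmic reticulum, and its cluster had 898, 904 and 883 in B2_minus_Ad_Cre, against 779.6, 787 and 804 in Cont_Ad_Cre (0.18, adjusted p = 1.03e-04). The further gains among the 10 largest were at Prkce (0.20), Adh7 and Adh1 (0.18), Atoh8 (0.17), Slc25a33 (0.17) and Dapk2 (0.17), with adjusted p between 0.00123 and 0.00961. The call at Adh7 and Adh1 was lost in 3 of the 6 fits that leave out 1 library, with the highest adjusted p, 0.101, without B2_minus_Ad_Cre replicate 3. Prkce is a protein kinase C gene, Adh1 and Adh7 encode alcohol dehydrogenases, and Slc25a33 a mitochondrial nucleotide carrier.

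The largest loss was in the cluster over Sfi1 at chr11:3123201-3209012, one of the 5 set apart above. It had 1171, 1173 and 1199 scaled tags in B2_minus_Ad_Cre, against 1523, 1506 and 1465 in Cont_Ad_Cre (log2 fold change -0.34 ± 0.03 SE, edgeR adjusted p = 2.03e-24). The cluster 2673 bp from Itga3, an integrin gene, at chr11:95079517-95117320, had 406, 405 and 404 in B2_minus_Ad_Cre, against 524, 486 and 504 in Cont_Ad_Cre (-0.31 ± 0.04 SE, adjusted p = 9.17e-09). Clu, which encodes the secreted chaperone clusterin, had 269, 267 and 238 in B2_minus_Ad_Cre, against 299.9, 314 and 311 in Cont_Ad_Cre (-0.26, adjusted p = 4.44e-04).

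The Ugt1a locus encodes the glucuronosyltransferases that conjugate bilirubin and many drugs, from alternative first exons, and Ugt1a6a is a known target of AhR. Its cluster of 68 regions at chr1:88214239-88317616 overlapped 12 genes, the most of any of the 500. The cluster overlapped Mroh2a, Hjurp and Trpm8 over longer stretches than the Ugt1a genes, and which gene it acts on was not tested. It had 699, 722 and 736 scaled tags in B2_minus_Ad_Cre, against 869, 784 and 841 in Cont_Ad_Cre (log2 fold change -0.21 ± 0.03 SE, edgeR adjusted p = 7.31e-06). Of its 33 regions with a value, 31 had a negative difference.

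A cluster 2275 bp from Ccl2, the gene of a chemokine that attracts monocytes, had 503, 516 and 499.6 scaled tags in B2_minus_Ad_Cre, against 598, 562 and 563 in Cont_Ad_Cre (log2 fold change -0.18, edgeR adjusted p = 0.00157). The other losses among the 10 largest were at Osbpl3 (-0.19), Nos1ap (-0.17) and 3 clusters with no gene within 50 kb, ranked 147 (-0.20), 341 (-0.19) and 425 (-0.18), with adjusted p between 1.16e-04 and 0.00856. The calls at Osbpl3, Nos1ap and the clusters ranked 341 and 425 were each lost without 1 of the 6 libraries (adjusted p = 0.0576 without Cont_Ad_Cre replicate 1, 0.0593 without B2_minus_Ad_Cre replicate 3, 0.0513 without Cont_Ad_Cre replicate 1 and 0.145 without Cont_Ad_Cre replicate 3). The clusters ranked 1 and 288 also passed (-0.10 and -0.15), with groups that overlapped, and each call was lost in 3 of the 6 fits.

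**Figure D3:**
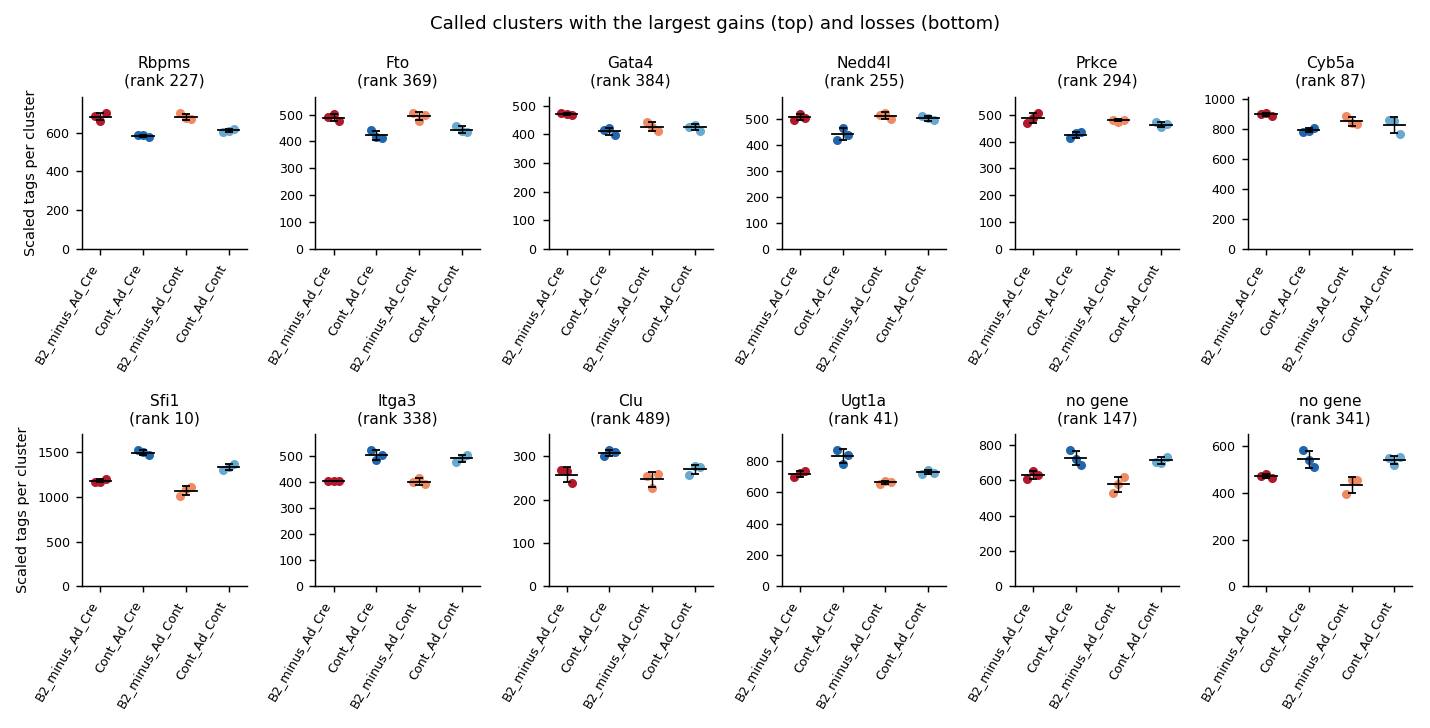
Scaled tags per cluster in each of the 12 hepatocyte libraries, for the 6 called clusters with the largest gains (top) and the 6 with the largest losses (bottom) in B2_minus_Ad_Cre against Cont_Ad_Cre; points are libraries, bars the mean and SD of 3. The clusters were taken among calls whose groups do not overlap; at Itga3 the B2_minus_Ad_Cre points lie at 404 to 406 and the Cont_Ad_Cre points at 486 to 524.

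By gene group, the calls were few, and each count reads beside the 12.6% of all 500 clusters that passed. Glucose metabolism had 2 clusters and both were higher in B2_minus_Ad_Cre than in Cont_Ad_Cre. Slc2a2, the glucose transporter of hepatocytes, had 564, 553 and 572 scaled tags against 528, 509 and 506 (log2 fold change 0.13, edgeR adjusted p = 0.0297). The cluster of Ldha, lactate dehydrogenase, overlapped Gtf2h1 over a longer stretch than Ldha. It had 499.6, 520.1 and 538 against 474, 460 and 485 (0.13, adjusted p = 0.0367). Among 6 clusters of fatty acid and triglyceride synthesis, Gpam passed, the gene of the acyltransferase that starts glycerolipid synthesis. It had 436, 443 and 433 in B2_minus_Ad_Cre, against 382, 393 and 410.1 in Cont_Ad_Cre (0.14, adjusted p = 0.0392). The list of flavoproteins, the enzymes that use vitamin B2 cofactors, had 3 clusters and was not complete. The one over Mical3, a flavin monooxygenase acting on actin, was higher (1396, 1384 and 1362 against 1287, 1292 and 1258, adjusted p = 0.00595). Mical2 (-0.01) and Txnrd1 (0.06) did not pass. Por, a flavoprotein gene kept in the xenobiotic list, did not pass either (-0.08, edgeR adjusted p = 0.206). Each of these calls was lost on leaving out some libraries: Slc2a2 in 4 of 6 such fits (highest adjusted p = 0.151, without Cont_Ad_Cre replicate 3) and Ldha in 5 (0.223, without B2_minus_Ad_Cre replicate 3). Gpam lost it in 5 (adjusted p = 0.169 without Cont_Ad_Cre replicate 1) and Mical3 in 1 (0.069, without Cont_Ad_Cre replicate 3).

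Of the 8 clusters at hepatocyte transcription factor genes, 1 passed, beside 12.6% of all 500. It was that 2530 bp from Foxa2, a pioneer factor of liver development, which was named after its value was seen. It had 655, 624 and 598 scaled tags in B2_minus_Ad_Cre, against 594, 538 and 558 in Cont_Ad_Cre (log2 fold change 0.15, edgeR adjusted p = 0.0083), and the call was lost without B2_minus_Ad_Cre replicate 1 (adjusted p = 0.105) and without Cont_Ad_Cre replicate 2. Hnf4a, the nuclear receptor of hepatocyte identity, had 760.4, 776 and 834 against 729, 744 and 748 and did not pass (0.10, adjusted p = 0.0913). Rxra, the partner of many nuclear receptors, had 0.05 and Nr5a2, a bile acid regulator, 0.08, neither past the threshold. The 4 clusters at plasma protein genes did not pass, with fibrinogen at 0.06, Cp at -0.09 and Trf at -0.11.

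Inflammation and acute phase genes had 4 clusters, of which Ccl2 and Socs3 were lower. Socs3, which encodes an inhibitor of cytokine signalling, had 457, 445 and 462 scaled tags in B2_minus_Ad_Cre, against 509, 484 and 503 in Cont_Ad_Cre (log2 fold change -0.13, edgeR adjusted p = 0.0441). Among 3 clusters of immediate early genes, the one over Flot1 and Ier3 was lower, with 807, 824 and 796 in B2_minus_Ad_Cre and 889, 860.1 and 867 in Cont_Ad_Cre (-0.11, adjusted p = 0.0363). Scaling by all listed tags gave 0.0023 for Socs3 and 0.028 for Ier3 in place of these losses. Both calls were lost in 5 of the 6 fits that leave out 1 library, with the highest adjusted p at 0.171 for Socs3, without B2_minus_Ad_Cre replicate 2, and 0.159 for Ier3, without B2_minus_Ad_Cre replicate 3. The Ccl2 call was kept in all 6. Itga3 was the 1 of 7 cytoskeleton and YAP clusters to pass. No cluster passed among the 5 of the clock, the 4 of cholesterol metabolism, the 4 of NRF2 targets, the 2 endothelial ones or the 1 of fatty acid oxidation, Cpt1a.

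Of the 10 clusters with the highest sums, those ranked 1 and 10 passed. The cluster of Neat1 and Malat1 had 2014, 2089 and 2053 scaled tags in B2_minus_Ad_Cre, against 2011, 2049 and 2014 in Cont_Ad_Cre (log2 fold change 0.02, edgeR adjusted p = 0.719). Zmiz1 had 2236, 2155 and 2159 in B2_minus_Ad_Cre and 2184, 2200.4 and 2096 in Cont_Ad_Cre (0.02, adjusted p = 0.77). The miR-29 cluster had 1896, 1949 and 1996, against 2016, 2015 and 1966 (-0.03, adjusted p = 0.456). Standard errors of 0.02 applied to these sums, and a p that misses the threshold does not show that they were equal. Over the 500 clusters, the coefficient of variation between the libraries of a group had a median of 2.57% in B2_minus_Ad_Cre and 2.70% in Cont_Ad_Cre.

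The share of calls fell with rank as the tags thinned out. It was 13.2% for ranks 1 to 250, 12% for ranks 251 to 500, 8.4% for ranks 501 to 1000 and 3.29% for ranks 10001 to 31402. Over the same bands, the median tags per cluster were 706, 461, 342 and 21.3, and the median standard error of the log2 fold change was 0.036, 0.043, 0.049 and 0.21. The median size of the called differences was 0.14, 0.15, 0.19 and 0.73. The clusters with the highest sums were thus called more often and at smaller differences, beside a smaller standard error.

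**Figure D4:**
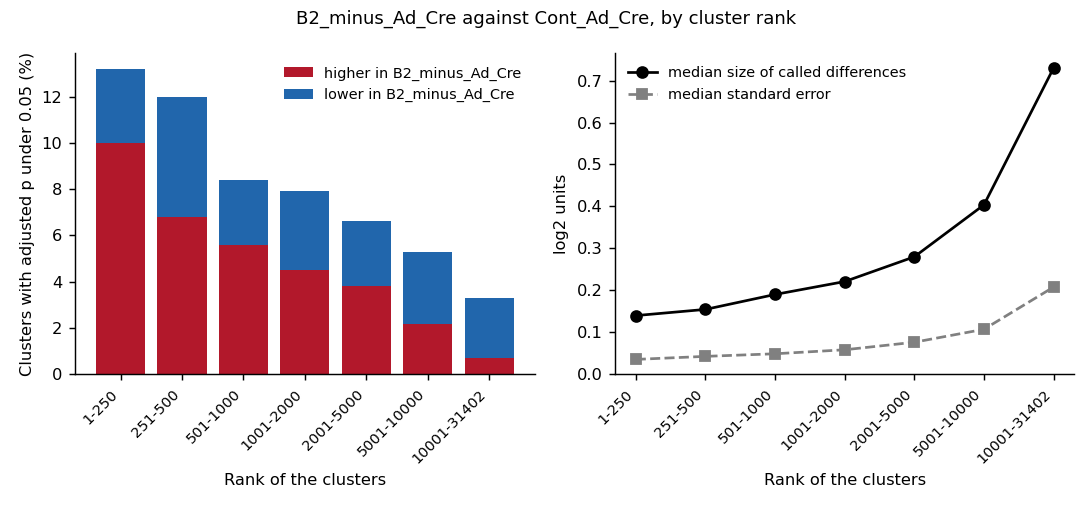
Left, percent of clusters tested with adjusted p under 0.05 in each band of ranks, higher (red) and lower (blue) in B2_minus_Ad_Cre against Cont_Ad_Cre; right, the median size of the called differences (circles) and the median standard error (squares), in log2 units. The share called was 13.2% in ranks 1 to 250 and 3.29% in ranks 10001 to 31402, while the median called difference was 0.14 and 0.73.

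Single regions inside the clusters were tested over all 101575 regions listed in the 12 libraries. Of the 9881 that overlapped the 500 clusters, 122 passed (1.23%), against 1.18% of all regions, with 58 higher and 64 lower in B2_minus_Ad_Cre than in Cont_Ad_Cre (0.388% and 0.794% of all regions). Their median log2 fold change was 0.56 for the gains and -0.77 for the losses, both larger than for whole clusters. Of the 122, 10 were in the cluster over Sfi1, where all were lower, and 112 were outside the 5 clusters set apart. DESeq2 called 0 of these regions (207 at an unadjusted p under 0.05, beside 2177 of all 101575), and edgeR with the spread bounded at that of counting 0 (541, beside 6107). Leaving out any 1 of the 6 libraries left 36 to 57 calls.

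The region with the largest gain, chr8:33973739-33974325, was in the Rbpms cluster, with 17.7, 23.0 and 28.1 scaled tags in B2_minus_Ad_Cre, against 11.03, 7.95 and 12.3 in Cont_Ad_Cre (log2 fold change 1.14 ± 0.24 SE, edgeR adjusted p = 0.00556). A second region of that cluster, chr8:33990032-33990275, had 38.6, 44.1 and 49.9 against 27.6, 22.9 and 28.04 (0.76, adjusted p = 0.00316). At Gata4, chr14:63205447-63205732 had 18.8, 18.2 and 15.4 in B2_minus_Ad_Cre and 11.03, 8.95 and 7.01 in Cont_Ad_Cre (0.97, adjusted p = 0.0319). The lowest Cont_Ad_Cre values at Gata4 and in the first region were near the lowest counts listed there, 7 to 8 tags before scaling. Leaving out 1 library ended the call in 2 of 6 fits for the first of these regions (highest adjusted p = 0.0807, without B2_minus_Ad_Cre replicate 3), in 1 for the second (0.056, without the same library) and in 5 for Gata4 (0.209, without Cont_Ad_Cre replicate 3). The remaining gains among the 10 largest were in clusters over Foxn3, Hs3st3b1, Ank3, Larp4b, Nln, Lrrc8d and Prrc2b, between 0.78 and 0.94. Each of these remaining calls was lost in 2 to 5 of the 6 fits.

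The cluster over Gtf2h1 and Ldha had a region at chr7:46838968-46839310 with 62.6, 71.8 and 66.2 scaled tags in B2_minus_Ad_Cre, against 34.2, 44.7 and 44.7 in Cont_Ad_Cre (log2 fold change 0.69, edgeR adjusted p = 2.07e-04). In Gpam, the region over the start window printed above, chr19:55099080-55099664, had 33.4, 31.6 and 30.8 in B2_minus_Ad_Cre, against 17.6, 20.9 and 21.9 in Cont_Ad_Cre (0.65 ± 0.18 SE, adjusted p = 0.0494). Hnf4a, whose whole cluster did not pass, had 2 regions that did, chr2:163583784-163584111 (0.65, adjusted p = 0.0321) and chr2:163587464-163587805 (0.56, adjusted p = 0.016). Regions in the clusters of Hsd17b2, a steroid dehydrogenase gene, and Igf1, the insulin-like growth factor, also gained (0.68 and 0.65). The regions at Ldha, Hnf4a, Hsd17b2, Igf1 and Gpam were named after their values were seen.

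Among the losses, the Prune1 cluster held the largest, at chr3:95261922-95262312, with 7.3, 7.7 and 8.2 scaled tags in B2_minus_Ad_Cre, against 12.1, 12.9 and 26.3 in Cont_Ad_Cre (log2 fold change -1.18, edgeR adjusted p = 0.00626). The third control library lay well above the other two, and without it the region did not pass (adjusted p = 0.285). The region's B2_minus_Ad_Cre values were near the lowest counts listed in those libraries, 6, 7 and 7 tags before scaling. Lower counts were never listed. Irf1, the gene of an interferon-responsive transcription factor, had a region at chr11:53755037-53755396 with 10.4, 9.6 and 10.0 in B2_minus_Ad_Cre, against 24.3, 19.9 and 21.9 in Cont_Ad_Cre (-1.13 ± 0.24 SE, adjusted p = 0.00535), inside a cluster that did not pass (0.09, adjusted p = 0.169). The miR-29 cluster likewise did not pass but held a region that did, chr6:31082588-31082971, with 24.0, 24.9 and 31.7 against 46.3, 43.7 and 48.2 (-0.77, adjusted p = 0.00221). The other losses among the 10 largest were in clusters of Dlgap1, Dnajb12, Rab11fip4, Man2a1, Lrig1, Arhgap23 and 1600014C10Rik and in the cluster ranked 425, between -1.11 and -0.97. Except in the cluster ranked 425, each of these calls was lost in 1 to 5 of the 6 fits that leave out 1 library. The Man2a1 region had 6.26, 6.70 and 6.35 scaled tags in B2_minus_Ad_Cre, at the lowest listed counts, and its call was lost in 5 fits.

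At the other start windows printed above, Septin9 was lower, with 36.5, 42.1 and 41.7 scaled tags in B2_minus_Ad_Cre, against 57.3, 57.7 and 55.2 in Cont_Ad_Cre (log2 fold change -0.49, edgeR adjusted p = 0.0203). Septin9 encodes a cytoskeletal GTP-binding protein. The noncoding starts Gm30842, in the Mical3 cluster, and Gm40264, in a cluster 27153 bp from Tmem243, were higher (0.59 and 0.34, edgeR adjusted p = 0.0213 and 0.0481). A further region over the noncoding start 4833411C07Rik was higher too (0.60, adjusted p = 0.0427), in the cluster 3478 bp from Irs2, the gene of an adaptor of the insulin receptor. That whole cluster was higher by 0.09 (edgeR adjusted p = 0.0471) and was named after its value was seen. Its call was lost in each of the 6 fits that leave out 1 library (highest adjusted p = 0.235, without Cont_Ad_Cre replicate 3). The Mical3 cluster, which also overlaps Pex26, held a region that was lower, chr6:121146785-121147203 (-0.81, edgeR adjusted p = 0.0463). This region was named after its values were seen.

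**Figure D5:**
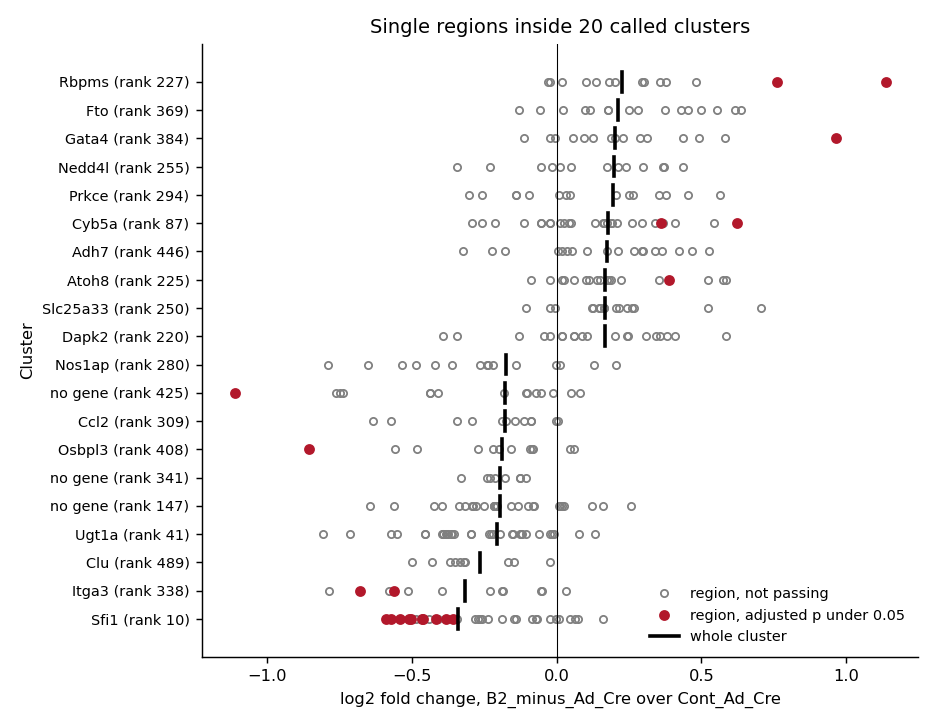
The log2 fold change of B2_minus_Ad_Cre over Cont_Ad_Cre for each single region (circles, filled red where adjusted p is under 0.05) and for the whole cluster (black bar), in the 20 clusters with the largest called gains and losses. At Sfi1, 10 regions passed, all lower, while clusters such as Fto and Clu have none that passed.

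Most called clusters moved through many small differences. In the 42 clusters that were higher, a median of 76.2% of regions had a positive difference, and in the 21 that were lower, 86.1% had a negative one, against 57.9% with the sign of their cluster in the 437 that did not pass. Since the regions make up the sums, these shares are a description. No single region passed in 23 of the 42 and 15 of the 21. In Clu, 10 of 10 regions were lower, in Itga3 11 of 12, in Ccl2 11 of 12, and in Fto 14 of 16 were higher.

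The Ad_Cre treatment was compared with Ad_Cont under vitamin B2 deficiency, which asks what Cre does in cells with a floxed Ahr. In B2_minus_Ad_Cre against B2_minus_Ad_Cont, 1 of the 500 clusters passed, the one over Sfi1, against 0.0256% of all clusters (7 of 27330). It had 1171, 1173 and 1199 scaled tags in B2_minus_Ad_Cre, against 1012, 1084 and 1109 in B2_minus_Ad_Cont (log2 fold change 0.15 ± 0.03 SE, edgeR adjusted p = 0.00652). The lone call is 1 of the 5 clusters set apart, and was not made by DESeq2, without B2_minus_Ad_Cre replicate 3 or without B2_minus_Ad_Cont replicate 1. Of the 500, 60 had an unadjusted p under 0.05, beside 2207 of all 27330. The clusters next in order of p did not pass. Dusp16 had 1059, 1035 and 1058 in B2_minus_Ad_Cre, against 1126, 1144 and 1118 in B2_minus_Ad_Cont (-0.10, adjusted p = 0.247). Gata4 had 475, 471 and 467, against 444, 425 and 411 (0.14, adjusted p = 0.282), and the Ugt1a cluster 699, 722 and 736, against 656, 672 and 667 (0.12, adjusted p = 0.281). No single region of the clusters passed in edgeR (761 of 9881 at an unadjusted p under 0.05, beside 7416 of all 101575) or in DESeq2 (48, beside 522), against 0.00295% of all regions in edgeR.

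In the Ad_Cont arm, the difference between B2_minus_Ad_Cont and Cont_Ad_Cont is a description, because Cont_Ad_Cont chose the clusters. Of the 63 clusters called in the Ad_Cre arm, 60 had a difference of the same sign there, beside 325 of the 437 that were not called. The groups did not overlap, in that direction, in 36 of the 63 and in 93 of the 437. Itga3 had 402, 416 and 392 scaled tags in B2_minus_Ad_Cont, against 477, 493 and 507 in Cont_Ad_Cont, and Sfi1 1012, 1084 and 1109, against 1298, 1339.9 and 1365. Rbpms had 699.8, 675 and 669 in B2_minus_Ad_Cont and 604, 610.2 and 618 in Cont_Ad_Cont. At other genes the groups overlapped, as at Gata4, with 444, 425 and 411 against 427, 434 and 412, and at the cluster of Mir122, with 516, 522 and 498 against 511, 502 and 493. Whether the effect of deficiency differed between the arms was not tested.

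The clusters took a smaller part of the listed tags in Cont_Ad_Cre than in the other groups. Their share was 7.86 ± 0.18% in B2_minus_Ad_Cre and 7.11 ± 0.09% in Cont_Ad_Cre (SD, n = 3 each), and 7.97 ± 0.16% in B2_minus_Ad_Cont and 7.94 ± 0.44% in Cont_Ad_Cont. The libraries listed 207948 to 235220 peaks in B2_minus_Ad_Cre and 254160 to 281141 in Cont_Ad_Cre, and 206940 to 225584 in B2_minus_Ad_Cont and 200698 to 265511 in Cont_Ad_Cont, and what part this had in the share was not tested. Over distal regions listed in all 12 libraries, the share was 16.3% in B2_minus_Ad_Cre, 16.2% in Cont_Ad_Cre, 16.2% in B2_minus_Ad_Cont and 16.3% in Cont_Ad_Cont. Of the clusters' regions, 92.9% were listed in a library of B2_minus_Ad_Cre on average and 92.8% in one of Cont_Ad_Cre.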

How the data were processed

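Peak lists of 12 ATAC-seq libraries of mouse hepatocytes were used, with coordinates on mm10. Bowtie2 and HOMER made them, per the submitters' processing notes, which give no versions. The deposited files hold raw tag counts per 200 bp peak, taken as counts from their whole-number values; peaks were listed per library and without weak ones. The members and lists were chosen with earlier results of these data known. A region's value was its highest peak count; only regions listed in all 12 libraries were summed, and TMM sizes over all such regions scaled them. The main test was edgeR's quasi-likelihood test (edgeR 4.0.16, R 4.3.3) on 9 libraries, without Cont_Ad_Cont, with Benjamini-Hochberg adjustment over all 27330 clusters or 101575 regions. It was tested on simulated data whose spread was that of counting, which cannot show how it behaves at a smaller spread. The main test lets the spread fall below that of counting, as it does here. DESeq2 1.42.0 and limma 3.58.1 were alternatives. Genes came from RefSeq GRCm38.p6. Named clusters were those with the 10 highest sums, the 3 on each side of rank 500, up to 10 calls per direction with separate groups, up to 3 per gene list, the 3 longest, densest and richest in regions, and up to 10 single regions per direction; others are said to be chosen later. Correlations between deviations of same-numbered libraries were very small but all positive (0.0013 to 0.0123), against -0.0119 to 0.00255 for different numbers. Numbers were not paired in the main test. Tag counts bound the precision, and depth per library is the listed tags only. The human cell libraries were not analysed here.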

Additional observations from a re-analysis of the deposited data

How the results depend on the processing

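Counts below are of the 500 clusters, or of their regions, with adjusted p under 0.05. For B2_minus_Ad_Cre against Cont_Ad_Cre, 63 clusters became 354 (352 higher) with library sizes from all listed tags, 2 with DESeq2, 15 (7 higher, 8 lower) with edgeR bounded at counting spread, 30 with the peaks of a region summed, 15 with absent peaks at 0, 31 with absent peaks at the lowest listed count, 35 with a stitching gap of 5 kb, 33 for the top 250 and 105 for the top 1000. Leaving out 1 library gave 33 to 45, the lowest without B2_minus_Ad_Cre replicate 3, and 19 of 63 calls were kept in all 6 such fits. Under the replicate block the count was 59 for clusters and 121 for regions, and other alternatives gave 48 to 76. For B2_minus_Ad_Cre against B2_minus_Ad_Cont, the 1 call became 0 with listed tags, DESeq2, bounded edgeR, summed peaks, absent peaks at 0 or at the lowest count, an overlap of at least 100 bp, and without the 5 dense or chromosome-start clusters, an alternative chosen after seeing the data; leaving out 1 library gave 0 to 1, with 0 without B2_minus_Ad_Cont replicate 1 or B2_minus_Ad_Cre replicate 3. For regions, 122 became 695 with listed tags, 0 with DESeq2, 0 with bounded edgeR, 1 with summed peaks and 36 to 57 without 1 library; the 0 of the Ad_Cre comparison became 0 to 1. With listed tags, losses turned to 0.031 at the cluster ranked 1, 0.028 at Ier3, 0.00995 at Gng7, 0.017 at Itgav and 0.0023 at Socs3; the cluster ranked 288 turned to 0.0064 with absent peaks at the lowest count and 0.027 with them at 0. The Cont_Ad_Cre share was 7.27% with summed peaks. A gap of 5 kb kept 308 of 500 clusters, and other choices 370 to 499. The cause of these changes was not tested. Called differences of about 0.1 rest on the tag sums given in the report and on a replicate spread below counting noise; fewer than 6 to 8 tags were never listed.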
